A study of Mus musculus with 14 samples.

Results

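The genes for the subunits of integrins and the chains of laminins were examined in immortalised mouse embryo fibroblasts, the iMEF cells of the labels. They were the protein-coding autosomal genes named Itga with a number or the letter d, e, l, m, v or x, Itga2b, Itgb with a number, and Lama, Lamb or Lamc with a number. This gave 37 genes of the 20807 protein-coding autosomal genes in the GENCODE M21 annotation of the build GRCm38.p6 (mm10), namely 18 integrin alpha, 8 integrin beta and 11 laminin genes. Chromatin immunoprecipitation and sequencing was used to map trimethylation of lysine 4 of histone H3 (H3K4me3) in cells without dTAG treatment, labelled WT, and in cells treated with dTAG for 30 min, 2 h, 4 h, 8 h or 16 h. Each of these 6 groups had 2 replicates, and 2 input libraries came from untreated and dTAG-treated cells. Cells of all groups, WT included, had lost their own Ash2l through deletion of exon 4 and lived on a lentivirally introduced human ASH2L fused to an FKBP12 degradation tag, in a line that grew from a single cell. ASH2L belongs to the core of all KMT2 complexes, which methylate lysine 4 of histone H3, and dTAG brings the tagged protein to an E3 ubiquitin ligase. The values below come from a list of 25431 H3K4me3 peaks found across all samples and a list of 32965 putative enhancers of control cells. Both lists hold positions only, so the values have no replicate error, no library depth and no time course, and a peak listed here may be present in some of the 6 groups only.

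Integrins are receptors that span the cell membrane and are built from an alpha and a beta subunit. They bind proteins of the extracellular matrix or of neighbouring cells and link them to the actin cytoskeleton or to intermediate filaments. Laminins are large secreted proteins made of an alpha, a beta and a gamma chain, and they form the core network of basement membranes, to which several integrins bind. Fibroblasts are known for receptors of fibronectin, vitronectin and collagen, epithelia for the integrins and laminins that anchor them to the basement membrane, and leukocytes and platelets for integrins that are rarely made elsewhere. H3K4me3 is found at the transcription start sites (TSSs) of most active genes, and often also at CpG-rich TSSs of genes with little expression. The members were grouped from textbook knowledge of where each gene is best known to act, into 12 fibroblast and mesenchymal, 10 epithelial, 8 leukocyte and platelet, and 7 other members. The classes were set with earlier results of these data known, so a contrast between them is a description and not independent support.

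The sequences at the start sites are shown first, because windows with and without a peak held different numbers of CpG dinucleotides. RefSeq promoters of GRCm38.p6, each from 250 bp before to 50 bp after the annotated start, were on hand for 23 of the 37 members, in 26 windows. The following 5 windows lay fully or partly within a peak. They belong to the fibronectin receptor subunit Itga5, the vitronectin receptor subunit Itgav, the common beta subunit Itgb1, and the laminin alpha chains Lama5 and Lama2. Capitals mark every CpG.
Itga5, chr15:103366742-103367041, minus strand: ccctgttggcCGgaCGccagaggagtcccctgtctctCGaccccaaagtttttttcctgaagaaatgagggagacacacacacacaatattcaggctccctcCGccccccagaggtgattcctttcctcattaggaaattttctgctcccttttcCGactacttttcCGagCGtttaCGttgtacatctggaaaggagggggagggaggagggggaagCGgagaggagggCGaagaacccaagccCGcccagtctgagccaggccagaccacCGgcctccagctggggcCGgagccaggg
Itgav, chr2:83724147-83724446, plus strand: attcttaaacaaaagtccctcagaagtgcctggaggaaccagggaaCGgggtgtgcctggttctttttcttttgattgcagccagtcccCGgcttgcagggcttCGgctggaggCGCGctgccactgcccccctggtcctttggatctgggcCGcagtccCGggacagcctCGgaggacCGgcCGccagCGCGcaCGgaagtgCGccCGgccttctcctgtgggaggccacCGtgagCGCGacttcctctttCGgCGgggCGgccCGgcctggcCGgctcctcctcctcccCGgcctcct
Itgb1, chr8:128685404-128685703, plus strand: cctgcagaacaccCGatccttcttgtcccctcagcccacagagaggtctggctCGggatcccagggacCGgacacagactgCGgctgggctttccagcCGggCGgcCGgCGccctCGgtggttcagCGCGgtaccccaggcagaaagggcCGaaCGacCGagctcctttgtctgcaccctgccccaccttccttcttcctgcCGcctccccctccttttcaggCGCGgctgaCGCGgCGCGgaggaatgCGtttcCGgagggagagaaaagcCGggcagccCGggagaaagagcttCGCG
Lama5, chr2:180225810-180226109, minus strand: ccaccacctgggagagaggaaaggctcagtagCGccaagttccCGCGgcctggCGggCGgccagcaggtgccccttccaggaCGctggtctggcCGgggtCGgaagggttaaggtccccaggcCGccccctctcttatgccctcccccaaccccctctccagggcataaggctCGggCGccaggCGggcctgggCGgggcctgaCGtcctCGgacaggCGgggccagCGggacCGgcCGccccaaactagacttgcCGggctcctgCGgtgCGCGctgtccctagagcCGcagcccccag
Lama2, chr10:27616893-27617192, minus strand: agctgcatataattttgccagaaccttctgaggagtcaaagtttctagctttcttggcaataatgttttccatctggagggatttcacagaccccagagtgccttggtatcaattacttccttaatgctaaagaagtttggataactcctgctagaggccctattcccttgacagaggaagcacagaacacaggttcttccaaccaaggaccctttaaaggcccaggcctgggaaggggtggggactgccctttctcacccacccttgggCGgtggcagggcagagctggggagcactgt
The Itga5, Itgav, Itgb1 and Lama5 windows held 13, 24, 27 and 24 CpGs, respectively. The Lama2 window held 1, although 53.7% of its bases lay in a peak.

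By contrast, the next 3 windows had no base in a peak. They belong to Itgam, a receptor subunit of macrophages and neutrophils, to Itgb7, a subunit of gut-homing lymphocytes, and to Itgb6, an epithelial subunit.
Itgam, chr7:128062390-128062689, plus strand: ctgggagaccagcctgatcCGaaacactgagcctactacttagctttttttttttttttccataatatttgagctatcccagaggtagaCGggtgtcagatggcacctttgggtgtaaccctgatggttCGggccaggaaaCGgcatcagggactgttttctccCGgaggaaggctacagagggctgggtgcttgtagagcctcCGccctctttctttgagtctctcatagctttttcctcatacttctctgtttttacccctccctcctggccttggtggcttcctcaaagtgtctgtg
Itgb7, chr15:102231886-102232185, minus strand: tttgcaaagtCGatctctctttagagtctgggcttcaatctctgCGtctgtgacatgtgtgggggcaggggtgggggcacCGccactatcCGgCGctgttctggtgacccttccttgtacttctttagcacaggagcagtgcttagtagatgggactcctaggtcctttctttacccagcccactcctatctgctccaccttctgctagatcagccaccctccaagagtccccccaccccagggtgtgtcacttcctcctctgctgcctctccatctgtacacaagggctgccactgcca
Itgb6, chr2:60722554-60722853, minus strand: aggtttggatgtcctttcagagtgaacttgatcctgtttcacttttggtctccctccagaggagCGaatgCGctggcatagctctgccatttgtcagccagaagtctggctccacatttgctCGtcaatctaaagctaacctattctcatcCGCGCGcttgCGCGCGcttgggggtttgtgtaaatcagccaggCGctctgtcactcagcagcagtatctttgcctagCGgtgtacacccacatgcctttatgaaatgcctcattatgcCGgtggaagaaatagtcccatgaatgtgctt
They held 6, 5 and 12 CpGs. The Itgb6 window, without a peak, thus held more CpGs than the Lama2 window with one. Over all member windows, the 15 with a peak held between 1 and 27 CpGs with a median of 16, and the 11 without one held between 2 and 12 with a median of 5. The median over all 31396 autosomal windows of the table was 7. This compares windows and not genes. Those without a peak included windows of Itga2b, Itga3 and Itga9, which had a peak near another of their TSSs. Itgb6 and Lamb3 each gave more than a single window.

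To ask which of these genes carried H3K4me3, each gene was given the peaks with at least 1 base no further than 1 kb from an annotated TSS of that gene. Of the 37 members, 26 (70.3%) had a peak, compared with 60.3% of all protein-coding autosomal genes. Member genes are long, and among the 4555 genes whose span with 50 kb on each side lay between the quartiles of the members, 135 and 220 kb, 76.5% had a peak. The share in members was thus above the one background and below the other. The shares differed more between classes. All 12 fibroblast members had a peak, as did 8 of 10 epithelial members, 1 of 8 leukocyte and platelet members and 5 of 7 other members. The 11 members without a peak were the epithelial genes Itgb6 and Lamb3, the leukocyte genes Itgad, Itgae, Itgal, Itgam, Itgax, Itgb2 and Itgb7, and Itga10 and Lamc3. None of these came close to the limit of 1 kb, the nearest peak to any of their TSSs being 6409 bp away for Itga10, 6903 bp for Itgb7 and 13671 bp for Itgb2. The farthest peaks that still counted were second peaks of Itga2b and Lamb2, at 772 and 699 bp. Only 1 assigned peak, that of Itga1, also lay within 1 kb of a TSS of another coding gene, the gene model Gm49395.

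Marker genes of fibroblasts, epithelia, leukocytes and platelets, and endothelia were also read, from lists chosen with earlier results of these data known. The shares with a peak were 100%, 20%, 10% and 40%, respectively, compared with 60.3% of all genes. The epithelial markers lay below that share, while the epithelial members, at 80%, lay above it. All 10 fibroblast markers had a peak, with widths from 382 bp at Col3a1 to 3018 bp at Prrx1 and a median of 2559 bp. By contrast, 2 of 10 epithelial markers had one, namely the adhesion genes Epcam and Cdh1 with 724 and 602 bp. This applied to 1 of 10 leukocyte and platelet markers, Gp1ba with 238 bp, and to the endothelial receptor genes Tek and Kdr of 5 endothelial markers. Ptprc and Spi1, which define leukocytes, and Krt5, Krt8, Krt14 and Krt18, which define epithelial cells, had none.

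In the fibroblast class, the widest peak was found at Itga5, whose product pairs with that of Itgb1 as the receptor of fibronectin. It spanned 3475 bp on chromosome 15 (chr15:103363888-103367362), from 599 bp upstream to 2875 bp downstream of the principal TSS, and was wider than 98.5% of the widest peaks of all genes. Itgav, whose product binds vitronectin and latent TGF-beta with several beta subunits, had a peak of 2833 bp (chr2:83723833-83726665). The peak of Itga11, a collagen receptor subunit of fibroblasts, spanned 2462 bp, and that of Itgb5, a partner of Itgav, 2018 bp. The chains Lamb1 and Lamc1, which are shared by most laminins, had peaks of 2560 and 2545 bp.

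The remaining fibroblast members had narrower peaks. The peak of Itga1, a collagen receptor subunit, spanned 1318 bp. Peaks of 807 and 746 bp were found at Lama2 and Lama4, the alpha chains of muscle and blood vessel laminins. Their place in this class is a matter of choice, as is that of Lamb2 below, and no alternative moved them. Itga7, known from muscle, was counted among the other members. Itga8, a receptor subunit for nephronectin, had the narrowest peak of the class with 630 bp, which was wider than 9.37% of the widest peaks of all genes. Thus the class ranged from 630 to 3475 bp, and 5 of its 12 members were among the widest 10% of all genes with a peak.

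At 2 fibroblast members the listed peaks left a gap. At Itgb1, the partner of 12 alpha subunits, the principal TSS lay between a peak of 580 bp that ended 45 bp upstream and a peak of 995 bp that began 100 bp downstream. At Lamb2, a chain of synaptic and glomerular laminins, a peak of 938 bp started 23 bp upstream of the TSS, and a second one of 407 bp lay at positions -1226 to -820 relative to it. This second peak was 699 bp from the nearest TSS of Lamb2.

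**Figure D1:**
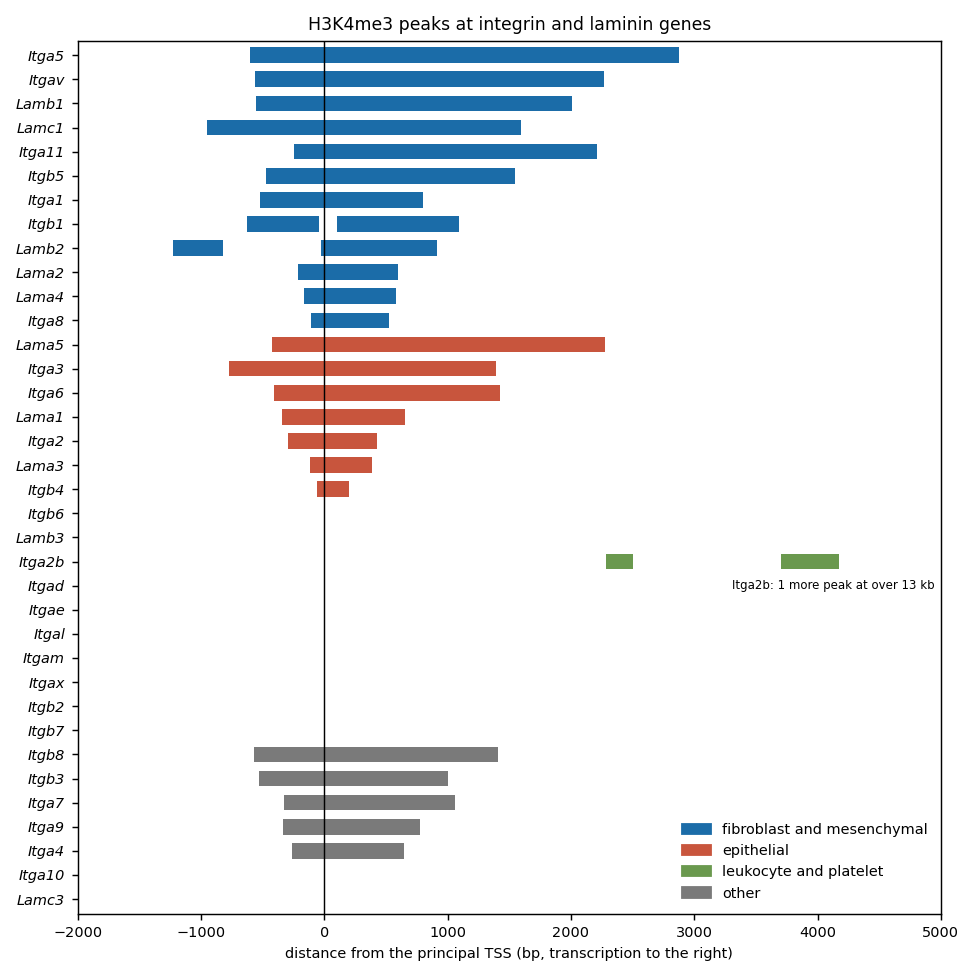
Extent of each H3K4me3 peak at 36 members, in bp from the principal TSS with transcription to the right, coloured by class and sorted by width within a class. Bars cross the line at 0 in 23 members, leave it free at Itgb1 and Itga2b, and are missing in 11 members. The third peak of Itga2b starts 13433 bp downstream and is not drawn.

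The epithelial class held both wide and very narrow peaks. Lama5, an alpha chain of many adult basement membranes, had 2704 bp (chr2:180223580-180226283), which was wider than 95% of the widest peaks of all genes. Itga3 and Itga6, the alpha subunits of the laminin receptors, had 2169 and 1830 bp. These 3 genes are also known from cells that are not epithelial, and whether this relates to the widths was not tested. Lama1, the alpha chain of early embryonic laminin, had 1000 bp, and Itga2, a collagen receptor subunit, had 722 bp.

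Other epithelial members had narrow peaks or none. Itgb4, the hemidesmosome subunit that pairs with Itga6, had a peak of 266 bp, from 62 bp upstream to 203 bp downstream of its TSS (chr11:115974647-115974912). Lama3, an alpha chain of epidermal laminin, had a peak of 502 bp. Lamb3, a beta chain of epidermal laminin, had none, and the nearest peak lay 33622 bp from its principal TSS. For Itgb6, which with Itgav activates TGF-beta in epithelia, the nearest peak was 155085 bp from the principal TSS.

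In the leukocyte and platelet class, no member had a peak on its principal TSS. Itga2b, the platelet fibrinogen receptor subunit, was counted through 3 peaks inside the gene, of 222, 474 and 898 bp, which began 2283, 3700 and 13433 bp downstream of the principal TSS (chr11:102469883). The nearest annotated starts were those of the processed transcripts Itga2b-209, Itga2b-208 and Itga2b-207, at distances of 180, 772 and 0 bp. The peaks of 222 and 474 bp each overlapped a putative enhancer. With TSSs of protein-coding transcripts only, or with RefSeq TSSs, 0 of 8 members of this class had a peak. Itga4 and Itgb3, which are also known from leukocytes and platelets, were counted among the other members. The peaks of Itga4 and Itgb3 both covered the principal TSS. With Itga4 moved here and Itgb3 to the fibroblast class, 2 leukocyte members had a peak in place of 1. The genes without a peak included Itgb2 and its 4 alpha partners, Itgal, Itgam, Itgax and Itgad, which bind cell-surface ligands and complement on leukocytes.

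Of the other members, Itgb8, a TGF-beta activating subunit, had the widest peak with 1980 bp, and Itga4, a VCAM1 receptor subunit known from leukocytes and from developing mesenchyme, had the narrowest with 913 bp. Itgb3, which is found on platelets, osteoclasts and many cultured cells, had 1531 bp. Itga7, the laminin receptor subunit of muscle, had 1388 bp, and Itga9, a subunit for tenascin and VCAM1, had 1107 bp. No peak was found at Itga10, a collagen receptor subunit of cartilage, or at Lamc3.

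The widths were then compared with the background. The median width of the widest peak was 1668 bp in the 12 fibroblast members, 861 bp in the 8 epithelial members with a peak and 1388 bp in the 5 other members with a peak. The median over all 26 members with a peak was 1212 bp, close to the 1264 bp over all 12545 genes with a peak. Both ends were populated. A width of over 2000 bp was reached by 8 of the 26 members (30.8%), compared with 16.2% of all genes with a peak. The ranges of the fibroblast and epithelial classes overlapped widely, and the difference between their medians has no replicate error. Without Itga5, the only fibroblast member on chromosome 15, the fibroblast median was 1318 bp. With peaks of at least 500 bp, the epithelial median was 1415 bp, over 6 members, and the fibroblast median again 1668 bp.

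**Figure D2:**
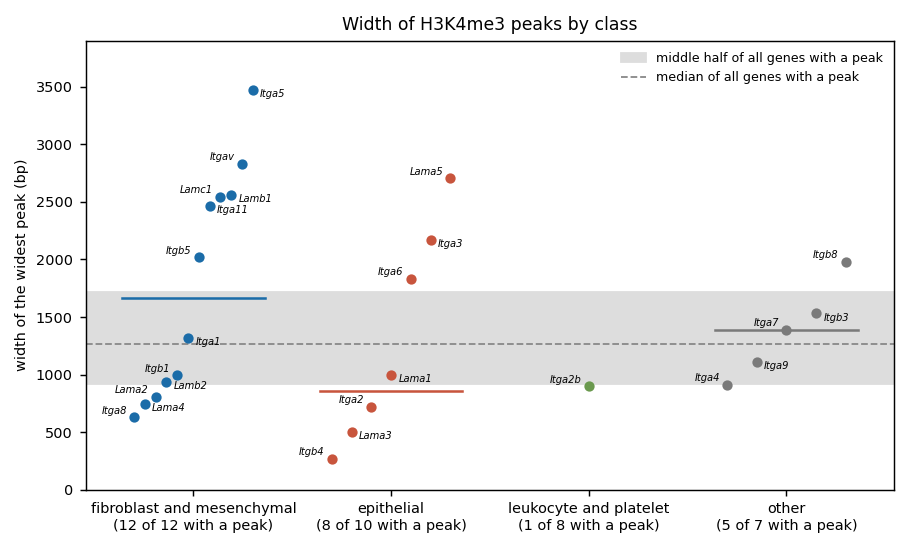
Width of the widest H3K4me3 peak in bp, 1 point for each of 25 of the 26 members with a peak, by class. Short lines are class medians over all members with a peak, the dashed line is the median of 1264 bp and the grey band the range from 916 to 1718 bp between the quartiles of all 12545 genes with a peak. Points of fibroblast members spread from 630 to 3475 bp and those of epithelial members from 266 to 2704 bp.

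H3K4me3 extended mainly into the transcribed side. A peak covered the principal TSS in 23 members, and in 23 of these 23 it reached further downstream than upstream, compared with 84.9% of such genes overall. The median extension in members was 346 bp upstream and 1004 bp downstream. Among all genes the medians were 315 and 928 bp. In the fibroblast class the downstream median was 1545 bp, and in the epithelial class 653 bp. The asymmetry was largest, as a share of the peak, at Lamb2 with 97.5% of its length downstream of the TSS, followed by Itga11 with 89.9%. It was smallest at Itga2 with 59.4%.

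Next, the CpG content from 500 bp before to 500 bp after each TSS was computed from the reference, and the TSS with the highest ratio of observed to expected CpGs was kept for each gene. A ratio of at least 0.6 with a GC content of at least 55% was called CpG-rich. By this measure, 16 of 37 members (43.2%) had a CpG-rich TSS. This compared with 45.9% of all genes and 63.4% of the 4555 genes with a span like that of the members. A peak was present at 15 of these 16, where 92.9% of all CpG-rich genes had one. The exception was Lamc3, with a ratio of 0.65 and the nearest peak 40839 bp from the principal TSS. Of the 21 members without a CpG-rich TSS, 11 had a peak, compared with 32.6% of such genes overall. Among the 4555 genes, 747 of the 1667 without a CpG-rich TSS had one.

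The classes were unevenly spread over this measure. CpG-rich TSSs were found in 7 of 12 fibroblast members, 6 of 10 epithelial members, 3 of 7 other members and 0 of 8 leukocyte and platelet members. These counts depended on the limits. In epithelial members the count was 2 with 1000 bp on each side and 3 with a ratio of at least 0.75, and in leukocyte and platelet members it was 2 from 250 bp before to 50 bp after the TSS. The 5 fibroblast members without one, Itga1, Itga11, Lama2, Lama4 and Lamb2, all had a peak, with widths between 746 and 2462 bp. The leukocyte genes Itgae, Itgam and Itgax had the lowest ratios of all members, 0.157, 0.221 and 0.239. Within the epithelial class, the 6 CpG-rich members all had a peak, Itga2 and Lama3 had one at ratios of 0.461 and 0.523, and Itgb6 and Lamb3 had none at ratios of 0.383 and 0.342.

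**Figure D3:**
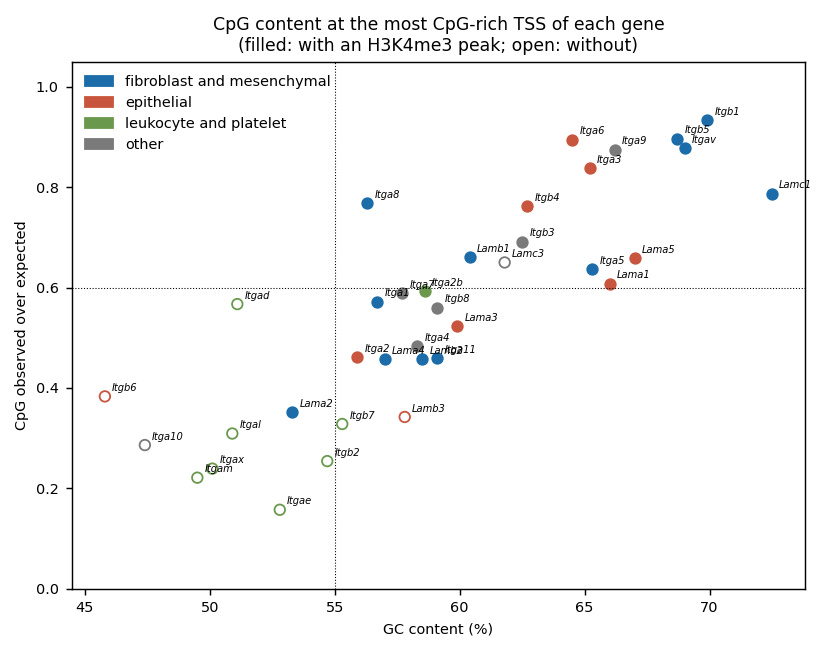
Ratio of observed to expected CpGs against GC content in percent, at the TSS with the highest ratio, for 36 members. Filled points are 25 members with an H3K4me3 peak, open points the 11 without, colours give the class, and dotted lines mark the limits of 0.6 and 55%. Open points sit below the line at 0.6 except Lamc3 at 0.65.

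The ratio of CpGs and the width of the widest peak were weakly related, with a Spearman rho of 0.364 across the 26 members with a peak and 0.319 across all 12545 genes with a peak. Both are descriptions across genes of the same list, which share the cells and the base composition of their chromosomes.

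Short motifs were searched on both strands of the RefSeq promoter windows. GGGCGG, the core letters of the GC box, was found in 12 of 26 member windows (46.2%), compared with 36% of all windows. It was in 10 of the 15 member windows with a peak and in 2 of the 11 without one. The share among all windows with a peak was not computed. TATAAA, the TATA box letters, was in 0 of 26, compared with 13.6% of all windows. GAGGAA, which is part of the binding sequence of the leukocyte factor PU.1, was in 14 of 26 (53.8%), compared with 28.2%, and it occurred with a peak (8 of 15 windows) and without one (6 of 11). Members with several RefSeq starts contribute several windows, and those of Lamb3 overlap.

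Integrins and laminins act as assembled subunits, so the peaks were also read by known combinations. The combinations were listed after the peaks of the members had been seen. Pairs share genes, as do the laminin trimers below, so these counts restate the calls of single genes. Of the single members, 70.3% had a peak. Of 24 integrin heterodimers known from textbooks, 16 had a peak at both genes, 3 at 1 gene and 5 at neither. Among the 12 pairs with Itgb1, 11 had a peak at both genes, and the exception was the pair with Itga10. Itgav had a marked partner in 4 of its 5 pairs, with Itgb1, Itgb3, Itgb5 and Itgb8 but not Itgb6. None of the 4 pairs with Itgb2 had a peak at either gene. The pair of Itga4 and Itgb7 had a peak at Itga4 only. The platelet pair of Itga2b and Itgb3 counts as marked only through the internal peaks of Itga2b.

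Among 14 laminin trimers, 10 had peaks at all 3 genes. These 10 combined an alpha chain, Lama1 to Lama5, with Lamb1 or Lamb2 and with Lamc1. The other 4 contained Lamc3 or Lamb3. All 5 alpha chains had a peak, with widths of 1000, 807, 502, 746 and 2704 bp for Lama1, Lama2, Lama3, Lama4 and Lama5.

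**Figure D4:**
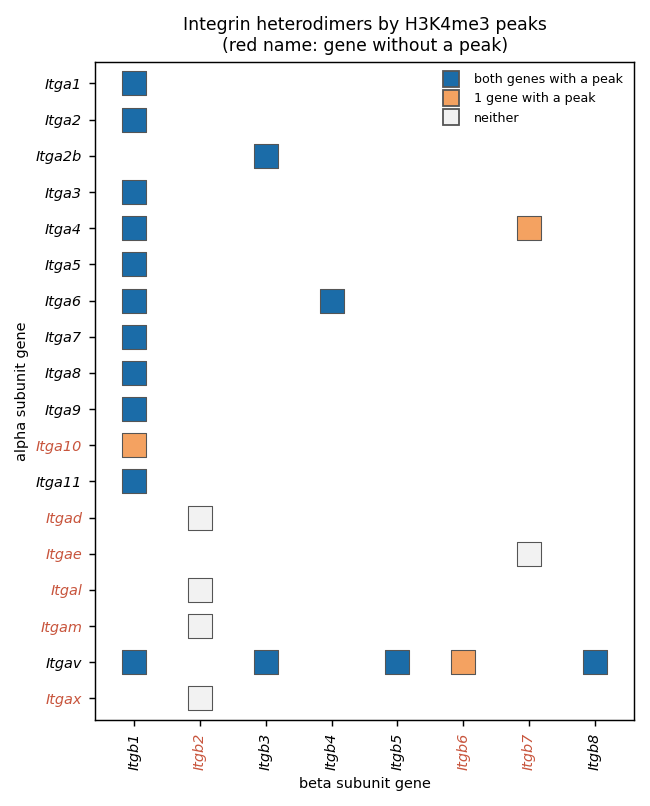
Grid of the 24 integrin heterodimers, with alpha subunit genes in rows and beta subunit genes in columns. Blue squares are the 16 pairs with an H3K4me3 peak at both genes, orange squares the 3 with a peak at 1 gene and pale squares the 5 with a peak at neither; names in red are genes without a peak. The column of Itgb1 is blue in 11 of 12 rows.

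Genes that work with these receptors were read in the same way. Of 23 autosomal genes of the adhesion machinery inside the cell, 19 (82.6%) had a peak, compared with 60.3% of all genes. No background matched for gene span was made for this list or the next, and both were chosen with earlier results known. Among the 4555 genes matched to the members, 76.5% had a peak. Widths were between 503 and 3996 bp with a median of 1945 bp, compared with 1264 bp over all genes with a peak. The widest were at Actn1 and Actn4, the actin crosslinking alpha-actinins, with 3996 and 3400 bp. Vcl, which encodes vinculin, had 2087 bp, and Ptk2, which encodes the focal adhesion kinase, 982 bp. Of the 3 kindlin genes, which encode integrin activators, Fermt2 had a peak of 2622 bp, whereas Fermt1, known from epithelia, and Fermt3, known from blood cells, had none. Parvg, the parvin gene of blood cells, and Tln2 had none, while the other talin gene, Tln1, had 1337 bp.

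Of 23 genes for matrix ligands, cell-surface ligands and basement membrane partners, 19 (82.6%) had a peak, with a median width of 1396 bp, compared with the same 60.3% and 1264 bp. Ccn1, an Itgav ligand of the matrix, had 4045 bp, and the adjacent basement membrane collagens Col4a1 and Col4a2 shared a peak of 3269 bp. Fn1, which encodes fibronectin, had a widest peak of 750 bp. The counter-receptors of leukocyte integrins Icam1, Icam2 and Madcam1 had none, nor did Tnn, whereas Vcam1, which encodes the ligand of Itga4, had 1281 bp. As a further matrix family, 29 of 42 collagen genes (69.0%) had a peak, with a median width of 1018 bp, below the 1264 bp of all genes.

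Putative enhancers are regions that carried H3K27ac and H3K4me1 and were accessible in the control cells, and the study left out those near TSSs of its own set. By the TSSs used here, 13 of 192 assignments to members still had their centre within 1 kb of a TSS, among them the only ones of Itga5 and Lamb2. Enhancers were counted inside each gene and within 50 kb of it. Each of the 37 members had at least 1, compared with 64.3% of all genes. The median window was 164 kb in members and 118 kb in all genes, and among the 4555 genes with windows like those of the members 77.3% had at least 1. Inside the gene, 24 members (64.9%) had an enhancer, compared with 25.8% of all genes and 51% of those 4555 genes. Per 100 kb of window, the median was 2.16 in members, 0.937 in all genes and 1.4 in the 4555 genes.

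By class, the median number per 100 kb was 3.21 in fibroblast members, 2.24 in epithelial members, 2.04 in leukocyte and platelet members and 0.841 in other members. With a window of 100 kb, the first 3 medians were 2.16, 2.12 and 1.9, so that the classes hardly differed. When an enhancer counted only for the gene with the nearest coding TSS they were 2.62, 1.37 and 0.69, and with enhancers of at least 300 bp 2.37, 1.23 and 1.36. The highest densities were found at Itgb3 and Itga11 with 8.62 and 7.28 per 100 kb, and the lowest at Itga9 with 0.254. In numbers, Itga11 had 15, of which 7 lay in the gene and 6 upstream. Itgb3 had 14, with 8 in the gene, and Itgb5 had 12, with 9 in the gene. Lama2 had 11, spread over a gene of 640 kb. A single enhancer was listed for Itga5, Lama4, Lamb2, Itgad, Itga4, Itga9, Itga10 and Lamc3. Thus Itga5 had the widest peak of all members and 1 enhancer, 11.7 kb upstream, while Itgb6 had no peak and 10 enhancers, 7 of them in the gene.

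**Figure D5:**
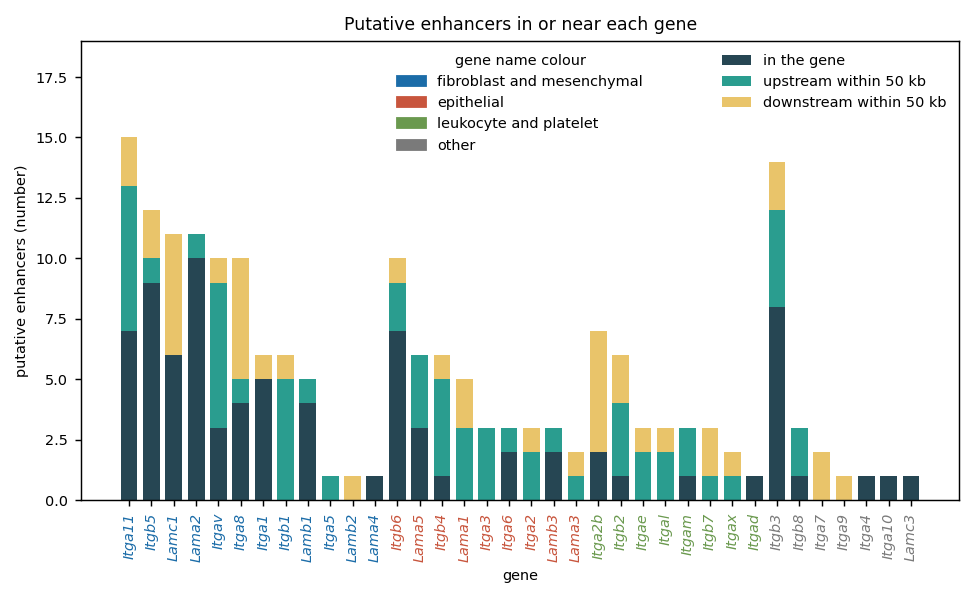
Number of putative enhancers for 36 members, stacked by position in the gene, upstream within 50 kb or downstream within 50 kb, with gene names coloured by class. Itga11, Itgb3 and Itgb5 have 15, 14 and 12, and no bar is at 0.

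Enhancer density and peak width were weakly related, with a Spearman rho of 0.188 across the 26 members with a peak and 0.181 across all 12545 genes with a peak. An enhancer in the window need not belong to the member, and for 119 of the 192 assignments (62%) the member had the nearest coding TSS. This share was 73% in fibroblast members, 65.4% in epithelial members and 28.6% in leukocyte and platelet members. Around Itgal, for example, the 3 enhancers were nearest to Dctpp1 or Zfp747, and around Itgax none of 2 was nearest to Itgax. Of the 6 enhancers of Itga1, 4 were nearest to Pelo, a gene that lies within Itga1, and 2 to Itga2. Neighbouring members also shared enhancers, among them 2 between Itga1 and Itga2, and 1 each between Itgam and Itgax and between Itgad and Itgax, and the 192 assignments were 183 regions.

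Of the 192 assignments, 85 lay in the gene, 63 upstream and 44 downstream. Of the 85 in a gene, 71 had no base in an exon of the member. An overlap with an H3K4me3 peak was found for 8 (4.17%), compared with 7.52% of all enhancers. Peaks in the gene body that were over 1 kb from a TSS were present in 8 members (21.6%), compared with 11.6% of all genes and 17.3% of the 4555 genes. These were Itgb5 and Lamc1 with 2 each, and Itgb1, Itgb4, Itgb7, Itga9, Itga10 and Lamb1 with 1 each. Itga10 and Itgb7 thus had a peak inside the gene although none lay at a TSS.

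To show such elements, the enhancer nearest to the principal TSS that holds TGANTCA, the letters bound by AP-1, is given for Itga11 and Itgb3, the members with the most enhancers. Each is the central 300 bp, and capitals mark the motif.
Itga11, chr9:62712451-62712750, plus strand: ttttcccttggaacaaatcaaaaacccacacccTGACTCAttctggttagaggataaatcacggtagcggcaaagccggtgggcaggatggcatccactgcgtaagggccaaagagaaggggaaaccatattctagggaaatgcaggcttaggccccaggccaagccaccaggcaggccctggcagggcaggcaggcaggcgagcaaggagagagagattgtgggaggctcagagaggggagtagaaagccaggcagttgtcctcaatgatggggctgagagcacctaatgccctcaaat
Itgb3, chr11:104627867-104628166, plus strand: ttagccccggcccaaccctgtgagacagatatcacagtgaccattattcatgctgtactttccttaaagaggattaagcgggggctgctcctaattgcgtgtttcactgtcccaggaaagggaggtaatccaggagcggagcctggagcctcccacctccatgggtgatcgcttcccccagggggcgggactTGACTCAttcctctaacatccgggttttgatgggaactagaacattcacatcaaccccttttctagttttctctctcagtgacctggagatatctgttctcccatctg
The first was part of an enhancer of 1146 bp, 34.8 kb downstream of the Itga11 TSS and inside the gene, and the second of an enhancer of 616 bp, 20 kb downstream of the Itgb3 TSS and inside the gene. TGANTCA was present in the central 300 bp of 30 of 183 member enhancers (16.4%), compared with 22% of all enhancers. GGAATG, the letters bound by TEAD factors, was in 43 (23.5%), compared with 22.5%, and TGTGGT, the letters bound by RUNX factors, in 47 (25.7%), compared with 25%. All were counted on both strands.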

How the data were processed

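The 2 deposited lists used here hold genome positions only. The authors aligned the trimmed reads (Trim Galore) with BWA to mm10 (GRCm38.p6), merged replicates and called narrow peaks by MACS, and the peak list is 1 union across all samples. The enhancers were accessible regions with H3K27ac and H3K4me1 in the control, and per the methods those within 1 kb of known TSSs were removed. Their list holds slightly more regions than the number of putative enhancers that the authors state. Judged by the widths, peak starts count from 0 and enhancer starts from 1. The lists have 0 columns of values per sample, so depth is unknown, and the planned count test over time could not be run.

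TSSs were the 5' ends of all GENCODE M21 transcripts of a gene, which may differ from the authors' set. The principal TSS is that of the principal coding transcript by the annotation's APPRIS tags. Promoter sequences, and enhancer sequences by coordinates, came from RefSeq and its GRCm38.p6 assembly. Members without an entry in the promoter table, 14 in all, included Itga6, Itga7, Itgad, Itgae, Itgal, Itgb2, Itgb3, Itgb4, Lama1, Lama3, Lama4, Lamc1 and Lamc3. Enhancers were assigned when any base lay in the gene or within 50 kb. Counts and medians were set beside those of all protein-coding autosomal genes, with no test, since genes are not replicates. 1 member is in the counts and medians, but its own values are not reported here.

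The members, classes, lists and motifs were chosen with earlier results of these data known, and the subunit combinations after the peaks of the members had been seen. All members were accounted for, and those named with full values were the widest and narrowest of a class, epithelial and leukocyte members with a peak, and those with the most enhancers. Alternatives varied the TSS set, windows, peak and enhancer widths, CpG limits and classes. Functions differed from brute-force versions in 0 of 2240 simulated queries. The software was pandas 2.3.3 with pysam 0.24.0, NumPy 2.4.6 and SciPy 1.17.1 under Python 3.11.15, and Matplotlib 3.10.9 for plots.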

Additional observations from a re-analysis of the deposited data

How the results depend on the processing

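The number of members with a peak stayed between 23 and 26 under the alternatives for TSSs, windows, peak widths and classes. Itga2b was lost with TSSs of protein-coding transcripts or RefSeq TSSs, Itga2b, Itga6 and Lama2 with 1 TSS per gene, Itgb4 among others with peaks of at least 500 bp, Itga5 when the centre of the peak had to lie within 1 kb of a TSS or without chromosome 15, and Itga1 when peaks reaching another coding gene were left out. Counting only the gene body, 24 members had an enhancer in place of 37. The median number of enhancers per 100 kb of window fell from 2.16 to 1.28 with enhancers of at least 300 bp and to 1 when an enhancer counted only for the gene with the nearest coding TSS. For all genes these medians were 0.773 and 0. The number of CpG-rich members, 16, became 8 with 1000 bp on each side and 9 with a ratio of at least 0.75. Leaving out enhancers with their centre within 1 kb of any TSS left 35 members with one, without Itga5 and Lamb2. Of 172 alternative values for members, 157 stayed within 1.5 times the count or within an interval of at least 95% for the median, and 15 moved. With 8 values, as for epithelial widths and leukocyte densities, this interval spanned their whole range. A leukocyte density of 0.69 in place of 2.04 thus counted as staying, as did an epithelial width of 1415 in place of 861 bp. For these medians the tally says little about stability. Of 40 for all genes, 28 stayed within 1.1 times the value and 12 moved. The median width of merged peaks was 1460 bp in members and 1639 bp in all genes. No paired analysis was possible because neither file separates the samples. For the same reason no replicate was left out and no other count test was run. A list of positions cannot show how strong a peak is, or when it was lost.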
